A study of Mus musculus with 20 samples.

Results

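The genes described here are 10 nuclear receptors that the liver uses to control lipid, bile acid, xenobiotic and energy metabolism: Nr1h3, Nr1h4, Nr1i2, Nr1i3, Nr5a2, Thrb, Esrra, Nr2f1, Nr2f2 and Nr2f6. They were chosen by name and role, not by a measured value, out of 51121 annotated genes on the autosomes. Earlier results of these data were known when they were chosen. For each gene the CpGs from 5 kb before its annotated start (transcription start site, TSS) to its end were taken from the mouse genome mm10 (GRCm38), and a CpG was kept where at least 3 libraries of each group had at least 10 reads there. This left 676 CpGs at the 10 genes out of 906622 in the genome, which fall into 113 of the 230208 bins of 200 bp that hold a kept CpG. Methylation was measured by reduced representation bisulfite sequencing (RRBS), in which the enzyme MspI cuts the DNA at CCGG and bisulfite then leaves methylated cytosines readable as such, so that every read counts a CpG as methylated or unmethylated. The 20 libraries are whole livers of wild-type C57BL/6J offspring labelled male, 5 in each of 4 groups. Con-d0 and Con-d21 are offspring of dams on a control diet, taken at birth (d0, by Caesarean section) and at weaning (d21). AME-d0 and AME-d21 are the offspring of dams that ate a Western-style diet high in fat, sucrose and cholesterol before and during pregnancy and lactation and were also stressed late in gestation, together the adverse maternal environment (AME), so diet and stress are not separated. Control dams were not stressed. The study's methods give 5 dams per group at d0 and 5 litters per group at d21, but the labels do not tie a library to a litter, so the p-values measure the spread between these libraries. Animals at d21 were fasted before they were killed, so age and the fast cannot be told apart.

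Nuclear receptors are transcription factors whose activity is switched by small lipophilic ligands, which bind a pocket in the same protein that binds DNA. In hepatocytes Nr1h4 (FXR) senses bile acids, Nr1h3 (the alpha form of LXR) senses oxysterols, Nr1i2 (PXR) and Nr1i3 (CAR) sense drugs and other foreign compounds, and Thrb is the main thyroid hormone receptor. Nr5a2 drives bile acid and reverse cholesterol transport genes, Esrra directs mitochondrial energy genes, and Nr2f1, Nr2f2 and Nr2f6 form the COUP-TF family, receptors without a known physiological ligand that often repress. Methylation of CpGs at promoters and enhancers commonly goes with low activity of those elements, but no expression was analysed here, and the values below are methylation levels only.

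The deposited counts of a library summed to between 23248139 and 45769589. The library AME-d21 replicate 4 went against its male label: for every 100 autosomal reads it held 2.88 from the X chromosome, where the other 19 libraries held 1.4 to 1.55, and its reads from the short arm of the Y chromosome were the fewest. It was kept because the labels place it in its group, only autosomal genes are described, and the counts of called bins, and those of the AME age comparison, are also given without it. AME-d0 replicates 1 and 3 stood low, with a mean methylation over all kept CpGs of 33.7% and 33.8% against 36.3% to 38.3% in the other d0 libraries, and of 14.7% and 13.8% against 15.4% to 16.3% over the CpGs of the 10 genes. No library was a copy of another, since at most 2.80% of kept CpGs had identical counts in any pair. Of the tissue's own markers, the promoters of 3 measured hepatocyte genes averaged 59.8% to 62% in Con-d0 libraries and 19.3% to 30.5% in Con-d21 libraries, and all 3 fell. Over the same time 4 of 5 haematopoietic and myeloid marker promoters rose (12.6% to 16% against 32.4% to 39.3% over the list), as did 2 of 4 erythroid, 4 of 5 endothelial and 3 of 7 stellate promoters, of which 1 fell, and neither of 2 cholangiocyte promoters passed the test. Genome-wide, 20% of 17906 promoters rose and 3.92% fell between Con-d0 and Con-d21. None of these marker promoters was called by limma between AME and Con offspring at either age. Bulk tissue cannot tell a change in the share of a cell type from a change of methylation within its cells, and the part of these marker shifts in the results at the 10 genes was not tested.

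RRBS saw the 10 genes very unevenly. It kept 0.928% of the CpGs that the reference sequence holds at Nr1i2 (5 CpGs), 2.29% at Nr1h4 (19), 3.11% at Thrb (66) and 4.28% at Nr5a2 (67), but 17.4% at Nr2f1 (92), 20.9% at Esrra (75), 27.9% at Nr2f6 (130) and 30.8% at Nr2f2 (182), with Nr1h3 (23 CpGs, 8.01%) and Nr1i3 (17 CpGs, 11.0%) between. Nr1h4, Nr1i2, Nr5a2 and Nr2f2 had no kept CpG within 1 kb of the gene TSS and Nr1i3 had 2, so that the promoters of the bile acid and xenobiotic sensors were largely not seen. The median kept CpG had 13 reads per library at Nr2f1 and 19 to 31 at the other genes. At 10 reads, 1 read is worth 10 percentage points. Where other genes overlap a window, the CpGs cannot be assigned to the receptor alone. At least 1 other annotated gene overlaps every window but those of Nr5a2 and Nr1h4: Tomm40l at Nr1i3, Maats1 at Nr1i2, A830082K12Rik at Nr2f1, B130024G19Rik at Nr2f2, Gm48320, Gm24140 and Gm48321 at Thrb, Acp2, Gm13783 and Gm23390 at Nr1h3, Trmt112, Mir6990, Catsperz and Kcnk4 at Esrra, and Ocel1 and Ushbp1 at Nr2f6. The plot of every kept CpG against its distance from the gene TSS shows where they lie.

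**Figure D1:**
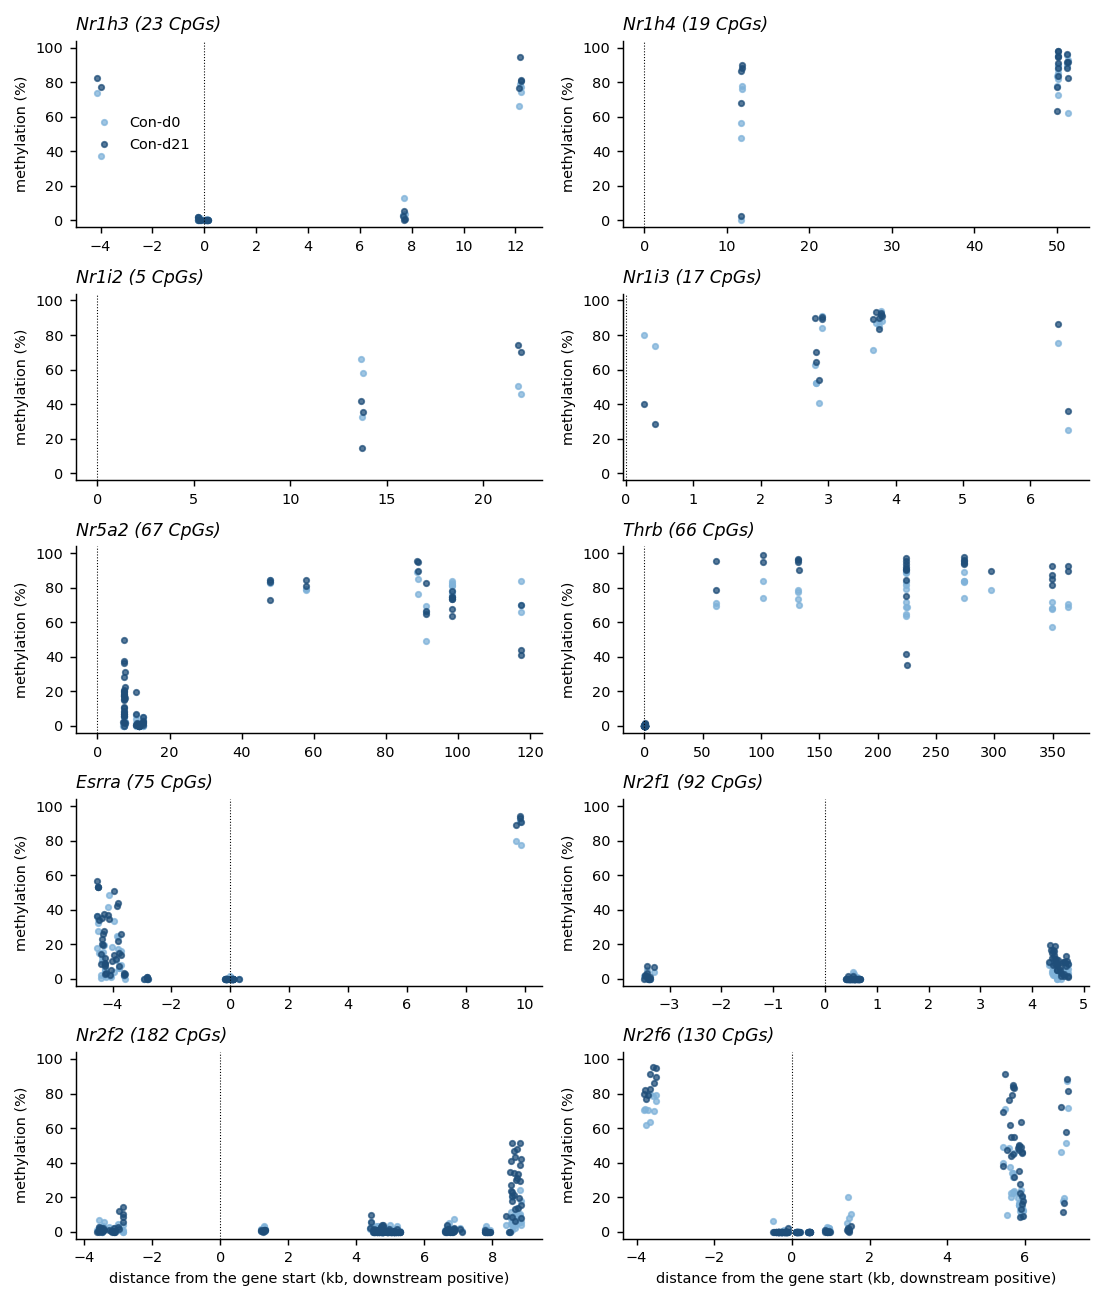
Mean methylation of each kept CpG (vertical axis, percent) against its distance from the gene TSS (horizontal axis, kb, downstream positive), 1 panel per gene, light points for Con-d0 and dark points for Con-d21 (mean of the libraries with at least 10 reads). CpGs next to the dotted line (the gene TSS) lie near 0% at both ages at Nr1h3, Thrb, Esrra, Nr2f1 and Nr2f6 but not at Nr1i3, and the dark points of the clusters in the gene bodies of Nr5a2, Nr2f2 and Nr2f6 lie above the light ones.

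Sequences of bins described below are given here from the GRCm38 reference, 5′ to 3′ on the strand of the gene, with the kept CpGs in capitals. The first 2 hold the single kept CpGs at the start of Nr1i3 that lost methylation with age (plus strand, chr1:171214201-171214342, the intronic part of its bin, and chr1:171214401-171214600). The third is the Nr1i2 intron bin that stood lower in every AME-d0 library than in every Con-d0 library (minus strand, chr16:38281001-38281200), and the fourth the Nr5a2 intron bin that gained methylation from almost none (minus strand, chr1:136952801-136953000).
Nr1i3 bin 1: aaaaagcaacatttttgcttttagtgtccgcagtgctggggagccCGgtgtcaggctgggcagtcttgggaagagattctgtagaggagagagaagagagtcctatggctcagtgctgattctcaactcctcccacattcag
Nr1i3 bin 2: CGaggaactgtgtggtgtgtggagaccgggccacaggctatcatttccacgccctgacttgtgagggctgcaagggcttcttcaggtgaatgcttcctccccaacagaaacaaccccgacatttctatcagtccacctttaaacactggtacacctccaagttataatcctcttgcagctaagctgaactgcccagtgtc
Nr1i2 intron bin: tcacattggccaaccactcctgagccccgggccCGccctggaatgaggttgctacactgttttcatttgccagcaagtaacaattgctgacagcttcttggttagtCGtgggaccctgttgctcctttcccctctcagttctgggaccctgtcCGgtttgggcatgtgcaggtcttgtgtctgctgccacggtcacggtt
Nr5a2 intron bin: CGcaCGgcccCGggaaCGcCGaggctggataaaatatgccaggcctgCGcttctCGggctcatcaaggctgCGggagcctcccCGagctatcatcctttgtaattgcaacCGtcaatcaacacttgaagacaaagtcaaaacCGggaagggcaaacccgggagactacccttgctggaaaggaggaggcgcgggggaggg

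The next 4 are neighbouring bins in a coding exon of Nr2f2 (chr7:70358001-70358200 and chr7:70357801-70358000) and of its paralogue Nr2f1 (chr13:78195401-78195600 and chr13:78195201-78195400), all on the minus strand, shown together because the exon is conserved between the 2 genes. The upstream bins match over 175 of 199 aligned bases (87.9%) and the downstream bins over 170 of 199 (85.4%). In each pair 12 CpGs of the reference sequence, kept or not, lie at the same place. The Nr2f1 upstream bin holds only 2 kept CpGs. The sources used here do not say how reads were assigned between the paralogues, so a read in these bins may be less certain than elsewhere.
Nr2f2 upstream bin: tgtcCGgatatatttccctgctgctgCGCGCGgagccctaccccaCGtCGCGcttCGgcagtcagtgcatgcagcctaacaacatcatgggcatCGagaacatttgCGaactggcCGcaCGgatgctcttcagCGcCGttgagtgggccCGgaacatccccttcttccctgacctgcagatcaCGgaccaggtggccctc
Nr2f1 upstream bin: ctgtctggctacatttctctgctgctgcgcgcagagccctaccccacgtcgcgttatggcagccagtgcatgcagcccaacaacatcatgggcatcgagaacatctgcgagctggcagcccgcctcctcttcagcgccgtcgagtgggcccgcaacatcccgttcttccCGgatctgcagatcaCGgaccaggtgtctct
Nr2f2 downstream bin: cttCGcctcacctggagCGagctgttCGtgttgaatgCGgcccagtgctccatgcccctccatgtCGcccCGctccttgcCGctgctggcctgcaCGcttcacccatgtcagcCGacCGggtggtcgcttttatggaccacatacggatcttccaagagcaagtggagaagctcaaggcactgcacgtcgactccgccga
Nr2f1 downstream bin: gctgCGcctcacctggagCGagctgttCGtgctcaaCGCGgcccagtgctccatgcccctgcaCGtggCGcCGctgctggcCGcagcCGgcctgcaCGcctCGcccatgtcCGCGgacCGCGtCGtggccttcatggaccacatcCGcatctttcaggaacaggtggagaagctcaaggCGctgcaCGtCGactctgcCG

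Motifs were counted on both strands of the reference in each 200-bp bin that holds a kept CpG. AGGTCA, the nuclear receptor half-site, is present in 10 of the 113 bins of these genes (8.85%) and in 10.6% of all 230208 bins. Among the bins above it occurs in the Nr2f2 upstream bin. TCAAGGTCA, the extended site of Nr5a2 and Esrra, which holds AGGTCA, is in none of the 113 and in 0.408% of all bins. CCGG, the cut site of MspI, is in 110 of the 113 (97.3%) and in 98.5% of all bins. A match describes the letters in the window only.

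The first comparison asked how methylation of these genes changed between birth and weaning in control livers. Of the 108 bins that could be tested (at least 10 reads in each of the 10 libraries), 28 rose and 4 fell, where a call needed an adjusted p below 0.05 over all bins (Benjamini-Hochberg, limma on the log2 of methylated over unmethylated reads, 1 read added to each) and a difference of at least 10 percentage points. The background for that count is that 27.6% of 209501 bins genome-wide rose and 3.05% fell, against 25.9% and 3.7% of the bins of the receptors, so the share that rose lay near that of the genome. The median difference was 0.843 points over the 108 bins and 6.22 points over all bins. In 19 of the 28 bins that rose and in all 4 that fell, the 5 Con-d21 libraries lay on one side of the 5 Con-d0 libraries (67.9% and 100% of those called, against 65.4% and 77.6% of the called bins of the whole genome). By gene, 8 bins rose at Thrb, 6 at Nr2f6, 4 at Nr5a2, 3 at Nr1h4, 2 each at Nr1i2 and Nr2f2 and 1 each at Nr1i3, Nr1h3 and Esrra, while 2 fell at Nr1i3 and 1 each at Nr1i2 and Nr5a2. At Nr2f1 none of 7 bins was called.

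Called bins were also counted by their mean level over all libraries. Of 54 bins with a mean under 10% over the 20 libraries 1 rose (1.85%, against 0.614% of such bins genome-wide). Of 19 bins between 10% and 60%, 10 rose and 3 fell (52.6% and 15.8%, against 31.3% and 16.7%), and of 35 bins at 60% or more, 17 rose and 1 fell (48.6% and 2.86%, against 36.9% and 0.879%). These counts are descriptions, with no test of the difference between the classes.

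Single CpGs were called at 6 of the genes. By a quasi-binomial logistic F test, with calls at an unadjusted p below 0.001 and 10 points or more, 40 of the 676 CpGs rose and 5 fell between Con-d0 and Con-d21 (5.92% and 0.74%, against 2.51% and 0.74% of 906622 CpGs). Of these, 14 that rose lay in Nr2f2, 12 in Nr5a2, 10 in Nr2f6, 2 in Thrb and 1 each in Nr1i3 and Nr1h3, and those that fell were 2 in Nr1i3 and 1 each in Nr5a2, Nr2f6 and Thrb. CpGs called in 1 bin share reads and are not separate evidence. The counts moved with the test and the number of libraries: limma per CpG called 80 that rose, a likelihood-ratio test without overdispersion 103 that rose and 10 that fell, and leaving out 1 library at a time gave 19 to 29 that rose and 0 to 4 that fell. The shares of all CpGs given above belong to the quasi-binomial test on all libraries. None was computed for these other settings, so their counts cannot be set against those shares.

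Over whole promoters (1 kb on either side of the gene TSS), the 5 receptors with at least 3 kept CpGs there were almost free of methylation at both ages. In all 20 libraries the promoters of Nr1h3, Thrb, Esrra, Nr2f1 and Nr2f6 lay between 0% and 0.756%. None rose and 1 fell between Con-d0 and Con-d21, where 20% of 17906 promoters rose and 3.92% fell. The promoter that fell was Nr2f6, from 0.35% ± 0.234 to 0.067% ± 0.112 (limma adjusted p = 0.0321), a difference of -0.283 points. So near 0% the log2 value depends on the 1 read added to each count, and with the mean percent over CpGs no promoter was called. Around any annotated TSS of a gene rather than the gene TSS, 7 of the receptors could be tested and 4 rose (57.1%, against 22.8% of 19336 genes that rose and 4.3% that fell): Nr5a2 by 12.5 points (adjusted p = 3.04e-06, limma), Nr2f6 by 8.30, Nr2f2 by 7.35 and Nr2f1 by 1.28. Nr1h3, Thrb and Esrra changed by less than 0.1 points there. Nr5a2 and Nr2f2 have no kept CpG within 1 kb of the gene TSS, so their values here come from CpGs that the gene bodies below also count.

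Upstream flanks, from 5 kb to 1 kb before the gene TSS, could be tested at 4 genes, and 3 rose and none fell in controls (50.5% of 9151 flanks genome-wide rose and 5.86% fell). The flank of Nr2f6 rose from 71.6% ± 3.47 to 85.2% ± 3.33 (limma adjusted p = 0.000706) and that of Esrra from 10.1% ± 1.36 to 16.8% ± 1.92 (limma adjusted p = 0.00187). At Nr2f1 the flank went from 1.01% ± 0.701 to 1.88% ± 0.231 (limma adjusted p = 0.0367), and at Nr2f2 it stood at 1.56% ± 0.384 and 1.5% ± 0.745. All values are means ± SD over 5 libraries. The flanks of the COUP-TF genes Nr2f1 and Nr2f2 were thus nearly free of methylation at both ages, and that of Nr2f6 was heavily methylated.

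Gene bodies, from 1 kb after the gene TSS to the gene end, rose at 7 of 10 genes and fell at none in controls, beside 61.4% of 15832 bodies that rose and 5.28% that fell genome-wide. A body can hold other annotated TSSs of its gene, as at Nr5a2 and Nr2f2, so its level can include CpGs near those TSSs. The median difference was 6.54 points over the 10 bodies and 6.43 over all. The largest was that of Nr2f6, from 22.9% ± 4.02 to 41.3% ± 4.28 (limma adjusted p = 0.000138), followed by Thrb, from 75.7% ± 3.72 to 87.7% ± 2.0 (limma adjusted p = 0.000156). Bodies of Nr2f1 and Nr2f2 stayed low although they rose, Nr2f1 from 4.37% ± 2.07 to 11% ± 1.46 (limma adjusted p = 0.00055) and Nr2f2 from 2.41% ± 0.37 to 6.65% ± 0.797 (limma adjusted p = 7.77e-06). Those of Nr1h4, Nr1i3 and Nr5a2 rose by 6.55, 6.54 and 5.63 points. The bodies of Esrra, Nr1h3 and Nr1i2 did not pass, with differences of 7.89, 1.48 and -5.7 points (adjusted p = 0.0775, 0.757 and 0.205, limma). Ranked by Con-d21 level the bodies ran from Esrra (91.7% ± 2.46), Thrb (87.7% ± 2.0), Nr1h4 (84.7% ± 1.05) and Nr1i3 (76.7% ± 2.53) through Nr1i2 (44.5% ± 5.22), Nr1h3 (42% ± 8.35) and Nr2f6 (41.3% ± 4.28) to Nr5a2 (28.8% ± 2.36), Nr2f1 (11% ± 1.46) and Nr2f2 (6.65% ± 0.797). Neighbours among Esrra, Thrb and Nr1h4 and among Nr1i2, Nr1h3 and Nr2f6 lay no farther apart than their SDs together. These levels rest on few kept CpGs at some genes: 4 at Esrra, 5 at Nr1i2, 8 at Nr1h3, 15 at Nr1i3 and 19 at Nr1h4. Thrb had 30, Nr2f1 35, Nr2f6 44, Nr5a2 67 and Nr2f2 150. The order is therefore that of the kept CpGs, not of whole gene bodies.

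**Figure D2:**
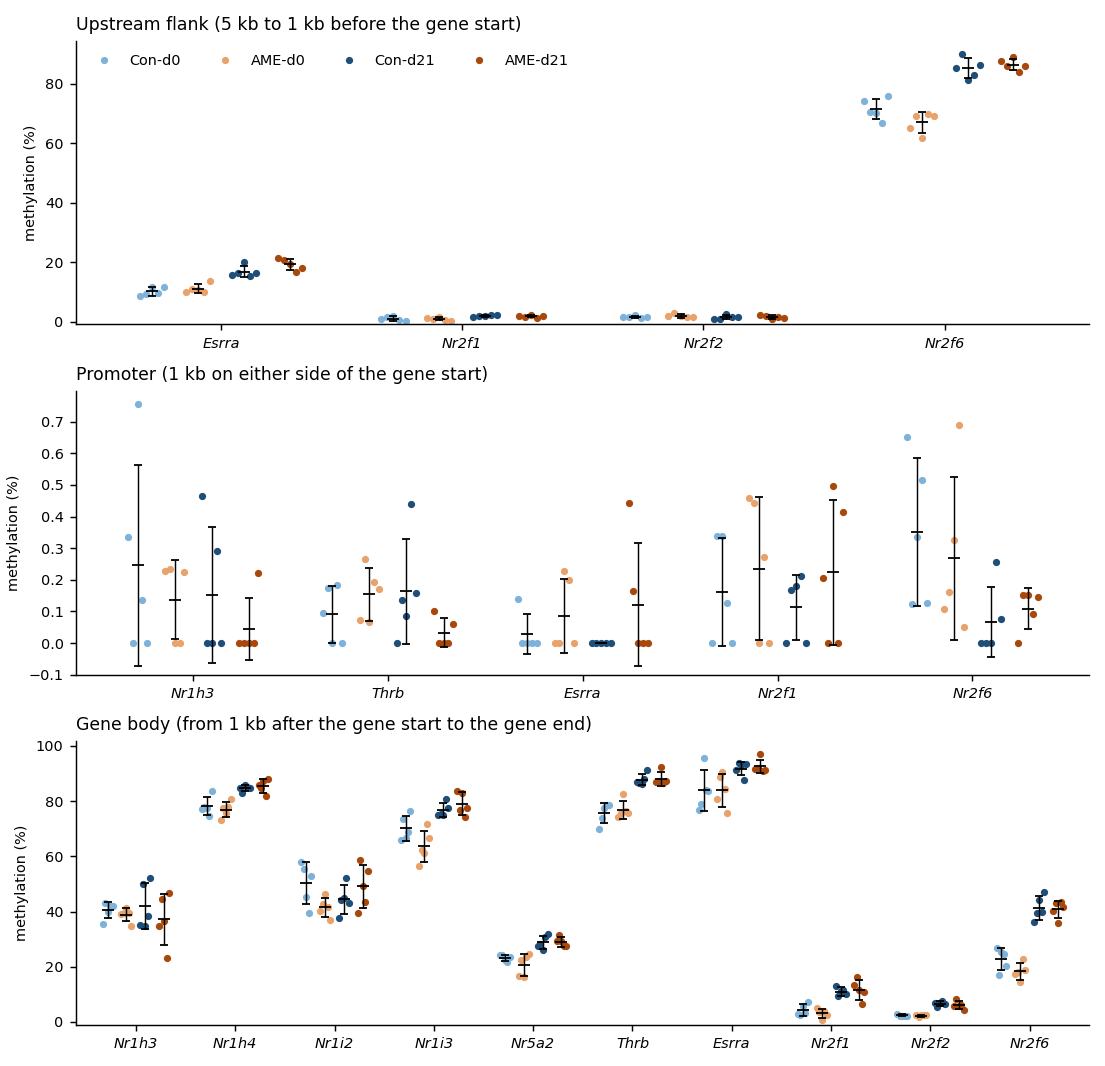
Methylation (vertical axes, percent) of the upstream flank, the promoter and the gene body of each receptor with at least 3 kept CpGs there, 1 point per library and 1 colour per group, with bars for the mean ± SD (n = 5). The vertical axes differ between panels: promoters lie under 1% in every library, while most gene bodies and the flanks of Esrra and Nr2f6 stand higher at d21 than at d0 in both maternal groups.

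Nr1i3, the constitutive androstane receptor that switches on drug-clearing enzymes, lost methylation at its start. The bin at chr1:171214201-171214400, mostly intronic, holds 1 kept CpG, which in Con-d0 read 75%, 76.9%, 76.2%, 95.8% and 76.9% methylated and in Con-d21 53.3%, 36.4%, 30%, 37% and 42.9%. Every Con-d21 library lay below every Con-d0 library, with means of 80.2% ± 8.79 and 39.9% ± 8.77 and a fall of 40.3 points (limma adjusted p = 0.000569). The next bin, chr1:171214401-171214600, which overlaps a coding exon, read 66.7%, 91.7%, 81%, 58.3% and 70.4% in Con-d0 and 26.7%, 31.8%, 20%, 22.2% and 40.9% in Con-d21, a fall of 45.3 points (adjusted p = 0.000259, limma). These are the 2 largest falls among the bins of the 10 genes, and each rests on 1 CpG with 8 to 27 reads per library. In AME-d21 a library had under 10 reads at both, so the AME ages could not be tested with limma there: the means were 76.7% ± 12.6 and 46% ± 8.82 in the first bin and 61.1% ± 15.7 and 42.3% ± 11.8 in the second. Farther inside the gene, where Tomm40l overlaps it, the bin at chr1:171216601-171216800 went the other way, from 53.9% ± 4.65 to 71.3% ± 3.73 in controls (adjusted p = 0.0054, limma) and from 51.6% ± 7.85 to 77.9% ± 5.27 in AME offspring (adjusted p = 0.000712).

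Nr1i2, the pregnane X receptor, had 3 bins, all in introns, and all 3 were called in controls, in both directions. The bin at chr16:38281001-38281200 holds 3 kept CpGs 13718 bases into the gene and read 62.4%, 60.9%, 42.1%, 39% and 56.2% in Con-d0 and 21.9%, 32.8%, 32.6%, 37.3% and 28.6% in Con-d21. It fell from 52.1% ± 10.9 to 30.6% ± 5.79, with no overlap of the groups (limma adjusted p = 0.00792). Its AME-d0 libraries read 34.8%, 30.2%, 36.6%, 26.1% and 28.8% and its AME-d21 libraries 23.3%, 40.9%, 31.9%, 29.6% and 36.5%. The means of the AME groups were 31.3% ± 4.32 and 32.4% ± 6.73, which differed by 1.14 points (adjusted p = 0.888, limma). Farther into the gene, 2 neighbouring bins with 1 kept CpG each rose in controls, that at chr16:38272801-38273000 from 45.6% ± 11.1 to 70.2% ± 7.07 (adjusted p = 0.0048) and that at chr16:38273001-38273200 from 50.5% ± 7.27 to 74.5% ± 12.6 (adjusted p = 0.00854). In AME offspring the second rose, from 49.99% ± 7.23 to 77.3% ± 10.2 (adjusted p = 0.00199), and the first stood at 58.2% ± 8.81 and 65% ± 9.7 (adjusted p = 0.345). These 2 bins had 10 to 35 reads per library.

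Nr1h4, the bile acid receptor, gained methylation in an intron 11710 bases from its TSS. The bin at chr10:89521801-89522000 read 31.6%, 48.8%, 41.8%, 25.4% and 50% in Con-d0 and 66.7%, 60%, 54.9%, 62.8% and 59.1% in Con-d21, and the groups did not overlap. The mean went from 39.5% ± 10.8 to 60.7% ± 4.37 in controls (limma adjusted p = 0.00868) and from 39.5% ± 5.3 to 56.7% ± 5.17 in AME offspring (adjusted p = 0.0118). Without the low AME-d0 replicates 1 and 3 the AME difference was 14.3 points and no longer passed (adjusted p = 0.0758). The adjoining bin at chr10:89521601-89521800 rose from 77.2% ± 12.2 to 89.2% ± 4.84, at the limit of the test (adjusted p = 0.0499), and lost its call in 11 of 17 alternative settings, among them the removal of Con-d0 replicate 1, 3 or 4 or Con-d21 replicate 3, 4 or 5.

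Nr1h3, the oxysterol receptor of cholesterol export and lipogenesis, changed only before its start among the bins called in controls, in a bin at -4062 bases from the gene TSS, upstream, that lies within Acp2 (chr2:91206801-91207000). It read 59.7%, 49.1%, 64.3%, 63.4% and 61.2% in Con-d0 and 81.6%, 83%, 83.9%, 82.1% and 70.7% in Con-d21. Con-d21 replicate 5 was the lowest of its group and still above every Con-d0 library (means 59.5% ± 6.11 and 80.3% ± 5.4, limma adjusted p = 0.00216). With 20 reads required at a CpG the call was lost (adjusted p = 0.207). In AME offspring the same bin went from 49.8% ± 5.81 to 86.8% ± 1.75 (adjusted p = 1.30e-05). Among its CpGs, that at position 91206837 went from 37.3% ± 8.09 to 77.4% ± 9.87 in controls. In AME offspring 2 bins of Nr1h3 were called as risen, this upstream bin among them, where controls had 1. Summed over its 8 kept CpGs, the body of Nr1h3 showed no called change in either maternal group. The AME age difference of the summed body turned from -1.63 to 1.84 points without AME-d21 replicate 4.

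Nr5a2, which drives bile acid synthesis genes, gained methylation at a CpG-rich intron bin that lies 702 bases after the TSS of another protein-coding transcript (chr1:136952801-136953000, 11 kept CpGs, 374 to 742 reads per library). The libraries read 1.6%, 1.64%, 2.37%, 0.943% and 1.14% in Con-d0 and 15.9%, 17.3%, 19.2%, 27% and 17.8% in Con-d21. No library of one age came near the other: the means were 1.54% ± 0.553 and 19.5% ± 4.37 (limma adjusted p = 2.66e-06), and in AME offspring 1.94% ± 0.367 and 22.3% ± 2.25 (adjusted p = 5.86e-07). Of the 12 CpGs called as risen in Nr5a2 in controls, the steepest, at position 136952999, went from 1.8% ± 2.58 to 49.7% ± 15.2. At the other end of the gene, in its 3′ untranslated region, the bin at chr1:136842801-136843000 fell from 71.1% ± 2.74 to 49.1% ± 8.36 in controls (adjusted p = 0.00261, limma) and from 72.3% ± 5.49 to 42.5% ± 5.83 in AME offspring (adjusted p = 0.000318). In that bin Con-d21 replicate 2, at 63.6%, lay apart from the 43.2% to 48.1% of the other 4. A distant intron bin at chr1:136869201-136869400 was called in controls (57.2% ± 7.24 to 71.7% ± 5.26, adjusted p = 0.0304), but its groups overlapped, it lost the call in 8 of 18 alternative settings, and in AME offspring it stood at 63.1% ± 8.33 and 70.8% ± 7.4 (adjusted p = 0.243).

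Thrb, the thyroid hormone receptor, is the longest of the genes and 8 of its 16 tested bins rose. The bin at chr14:18009601-18009800, 349468 bases from the gene TSS and overlapped by Gm48321, read 61.3%, 56.8%, 68.4%, 63.8% and 57.6% in Con-d0 and 86%, 82.7%, 80.8%, 80% and 96.2% in Con-d21 (means 61.6% ± 4.78 and 85.1% ± 6.62, limma adjusted p = 0.00236). All Con-d21 libraries lay above all Con-d0 libraries, and the same was true of the AME groups, with 53.1% ± 14.3 and 85.1% ± 5.31, where AME-d0 replicate 1 was lowest at 28.9%. The bin at chr14:18023401-18023600 went from 68.8% ± 15.1 to 92.4% ± 5.07 in controls (adjusted p = 0.00323) and from 71.9% ± 15.1 to 93.9% ± 2.35 in AME offspring (adjusted p = 0.00184). Against this run, the CpG at position 17885074 fell from 68.8% ± 8.67 to 35.1% ± 9.91 in controls.

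Esrra, the oestrogen-related receptor of mitochondrial energy genes, had 1 called bin in controls. It lay upstream, in Kcnk4, at chr19:6926201-6926400, and read 24.4%, 18.3%, 26.5%, 25.2% and 27.7% in Con-d0 and 46.2%, 31.8%, 55.8%, 43.3% and 40.4% in Con-d21. The groups did not overlap (means 24.4% ± 3.66 and 43.5% ± 8.75, limma adjusted p = 0.00553), nor did those of AME offspring (26.2% ± 4.28 and 50.4% ± 5.77, adjusted p = 0.000832). In AME offspring a bin of the gene body with 1 kept CpG, chr19:6912001-6912200, also rose, from 77.9% ± 8.44 to 96.1% ± 2.34 (limma adjusted p = 0.000315), by 18.2 points with and without AME-d21 replicate 4. In controls a library had under 10 reads there and the age difference was not tested.

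Nr2f2 and Nr2f1, which encode COUP-TF proteins that in the liver are also known from mesenchymal and venous cells, changed most in the conserved coding exon. In the Nr2f2 upstream bin (16 kept CpGs, 420 to 1081 reads per library) Con-d0 read 10.8%, 5.44%, 5.49%, 7.12% and 6.39% and Con-d21 28.6%, 24.1%, 26.4%, 27.5% and 29.6%. The bin rose from 7.05% ± 2.2 to 27.3% ± 2.13 in controls (limma adjusted p = 4.26e-05) and from 5.9% ± 0.485 to 26% ± 5.59 in AME offspring (adjusted p = 2.50e-05), where replicate 4 read 17.5% and the AME difference without it was 22.2 points. The downstream bin rose from 10.2% ± 2.82 to 30.2% ± 4.31 (adjusted p = 0.000253) and in AME offspring from 9.34% ± 3.89 to 30.7% ± 3.25. Of 19 Nr2f2 bins, 14 stayed under 10% in every library, and all 14 CpGs called as risen lay in these 2 bins.

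In the same exon of Nr2f1 the differences were under 10 points in controls. The downstream bin (22 kept CpGs) read 2.37%, 2.54%, 4.48%, 2.27% and 8.21% in Con-d0 and 13.2%, 9.41%, 12.8%, 12.7% and 10.4% in Con-d21, which do not overlap. Its rise from 3.97% ± 2.53 to 11.7% ± 1.7 passed the adjusted p (0.00152, limma) but not the 10 points, and in AME offspring it went from 3.06% ± 1.82 to 10.9% ± 3.1 (adjusted p = 0.00288). The upstream bin, with 2 kept CpGs, went from 8.76% ± 2.18 to 16.2% ± 2.41 in controls (adjusted p = 0.014) and from 3.64% ± 2.09 to 16.6% ± 5.66 in AME offspring (adjusted p = 0.00031), where the difference of 12.9 points was called. The difference between the paralogues in the size of the rise was not tested.

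Nr2f6, the third COUP-TF gene, had the largest rise among the bins of the 10 genes. It lay over exon and intron near the 3′ end, where Ocel1 overlaps (chr8:71376201-71376400, 11 kept CpGs, 220 to 473 reads per library). Con-d0 read 35.2%, 27.1%, 40%, 26.5% and 22.6% and Con-d21 65%, 58.1%, 64%, 62.7% and 71.8%. The ages stood far apart in both maternal groups, with 30.3% ± 7.09 and 64.3% ± 4.94 in controls (limma adjusted p = 0.00017) and 27.4% ± 6.11 and 65% ± 4.12 in AME offspring (adjusted p = 4.56e-05). Within it the CpG at position 71376258 went from 31.8% ± 8.61 to 83.8% ± 7.1 in controls. A second bin nearby, at chr8:71375001-71375200 (1 kept CpG, 5 to 31 reads per library), rose from 46.3% ± 13.6 to 72.2% ± 12 with overlapping groups (adjusted p = 0.0111). Nearer the gene TSS, outside the promoter window, 1 CpG at position 71380524 fell from 19.8% ± 6.59 to 2.25% ± 2.48 in controls and from 21% to 2.34% in AME offspring.

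**Figure D3:**
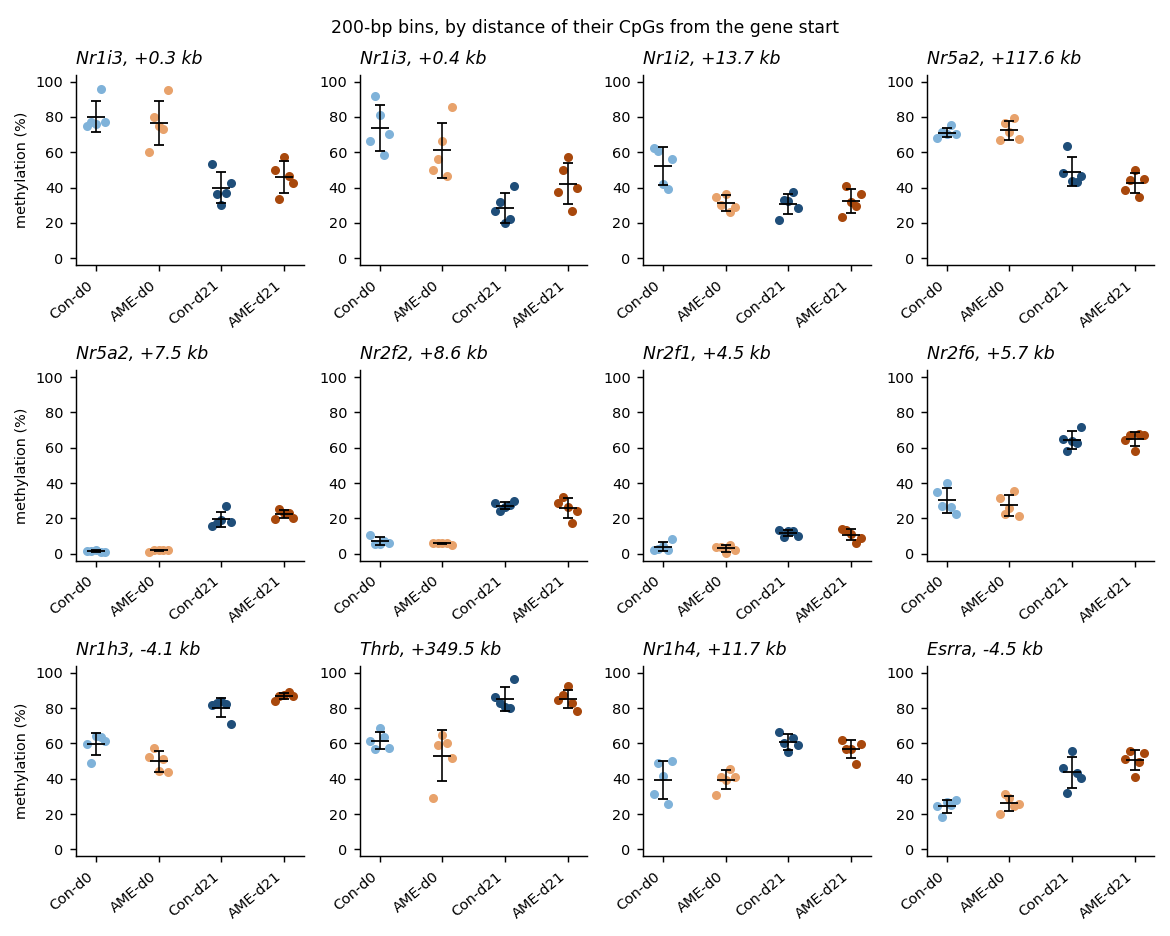
Methylation (vertical axes, percent) of 12 bins of 200 bp, 1 panel per bin named by gene and distance from the gene TSS, 1 point per library, both d0 groups before both d21 groups, with bars for the mean ± SD (n = 5). The top row holds the 4 bins that fell in controls, among which Nr1i2 stands at 31.3% in AME-d0 against 52.1% in Con-d0, and the other 8 panels hold bins whose d21 libraries lie above the d0 libraries of the same maternal group.

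The same age comparison in AME offspring uses other animals, so it repeats the measurement. Of 100 bins tested 27 rose and 2 fell (27% and 2%, beside 33.2% and 2.75% of 190274 bins genome-wide), with a median difference of 1.17 points against 7.21 over all bins. Without AME-d21 replicate 4, 32 rose, among them all 27, and 1 of the 2 falls was kept. Without AME-d0 replicates 1 and 3, 24 rose, 23 of them shared, and 1 fell. Of 98 bins that could be tested in both maternal groups, 25 rose in controls and 25 in AME offspring, and 19 rose in both (76% of each). Of the falls, 2 were called in each and 1 in both, that at the end of Nr5a2 (50% of each). The matching overlap over all bins of the genome was not computed, so these shares are not read as particular to the receptors. The other AME fall lay in Thrb, at -10.5 points, and was the one lost without AME-d21 replicate 4.

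**Figure D4:**
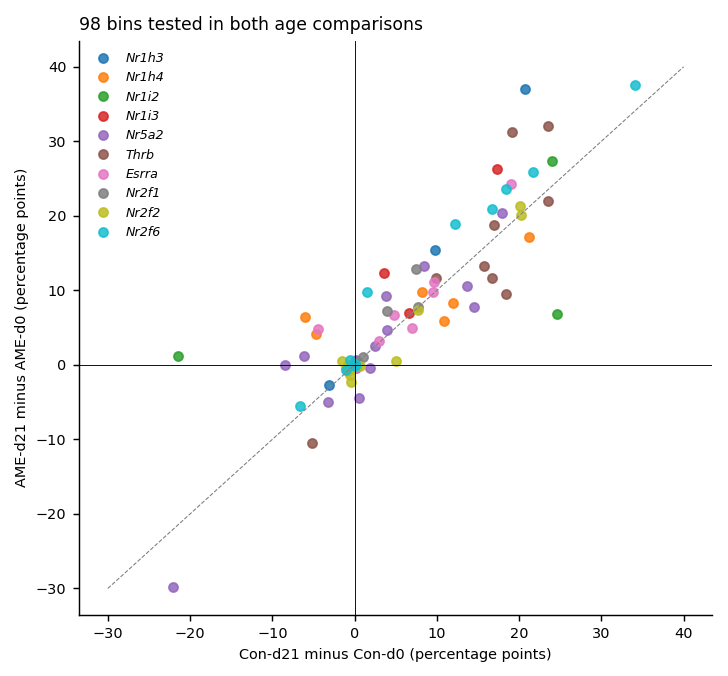
Difference between d21 and d0 (percentage points) of the 98 bins tested in both maternal groups, controls on the horizontal axis and AME offspring on the vertical axis, 1 colour per gene and a dashed line of equal change. Most bins lie near 0 or in the upper right, Nr2f6 highest in controls at 34.0 points, an Nr5a2 bin fell in both at the lower left, and an Nr1i2 bin stands at the left with -21.5 points in controls and 1.14 in AME offspring.

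At the level of CpGs, 47 rose and 2 fell in AME offspring (6.95% and 0.296%, against 2.59% and 0.562% of all). Nr2f6 held 19 of those that rose, Nr2f2 12, Nr5a2 11, Thrb 2 and Nr1i3, Nr1h3 and Esrra 1 each. The count of those that rose fell to 15 without AME-d0 replicates 1 and 3, which leaves 3 libraries in that group, and lay between 30 and 40 with 1 library left out at a time. Limma per CpG called 83 and the likelihood-ratio test 113, again with no share over all CpGs computed. Without AME-d21 replicate 4, 37 CpGs rose and 2 fell, and the counts of promoters, flanks and bodies were 0, 3 and 8. No promoter of the 5 was called, where 21.2% of 17876 promoters rose and 3.24% fell. Around any annotated TSS 4 of 7 rose, beside 24.3% of 19308 genes that rose and 3.49% that fell. Flanks rose at the same 3 genes as in controls (53.7% of 9128 rose and 5.04% fell), with Nr2f6 going from 67% ± 3.47 to 86.5% ± 1.98 (limma adjusted p = 3.92e-05) and Esrra from 11% ± 1.5 to 19.3% ± 1.9 (limma adjusted p = 0.00122). Gene bodies rose at 8 genes and fell at none (66% of 15808 rose and 3.95% fell), at Esrra as well as the 7 of controls. The rise of the Nr1i3 body was 15.3 points in AME offspring and 6.54 in controls, and that of Nr2f6 22.5 and 18.5. Without AME-d0 replicates 1 and 3 these AME rises were 12.2 and 20.8 points. Whether the rise of a gene body differed between the maternal groups was not tested.

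At birth, the comparison of AME-d0 with Con-d0 addressed the maternal environment before birth. No bin of 106 was called by limma in either direction, and 0% of 201212 bins were called genome-wide (0 rose and 0 fell). At an unadjusted p under 0.05, 1 of the 106 rose and 3 fell (0.943% and 2.83%, against 1.47% and 4.22% of all bins). The lowest adjusted p was 0.859, the differences ran from -20.8 to 12.6 points with a median of -0.14, and 89 of the 106 were under 5 points in size. Groups did not overlap in 2 of the 106 bins (1.89%, against 0.821% of all bins).

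The bin with the smallest p was the Nr1i2 intron bin printed above. Its 5 AME-d0 libraries lay between 26.1% and 36.6% and its 5 Con-d0 libraries between 39% and 62.4%. The difference was -20.8 points (unadjusted p = 0.00189, adjusted p = 0.859, limma), so it did not pass once all bins were counted. It was -23.8 points without AME-d0 replicates 1 and 3 (adjusted p = 1.0), which stood low in mean methylation, so the gap was as large without them. This comparison and the control age comparison share the Con-d0 libraries, whose values enter both. Its CpG at position 38281046 read 21.4%, 23.1%, 27.3%, 18.8% and 36% in AME-d0 with 11 to 25 reads and 62.2%, 50%, 48.5%, 55.3% and 73.1% in Con-d0 with 20 to 38 reads. The quasi-binomial test did not call it (unadjusted p = 0.00178), while limma per CpG (unadjusted p = 6.73e-05) and a likelihood-ratio test without overdispersion (unadjusted p = 4.46e-06) did. How many CpGs of the whole genome those other tests call was not computed.

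Next came the Nr2f1 upstream exon bin, at 8.76% ± 2.18 in Con-d0 and 3.64% ± 2.09 in AME-d0 (unadjusted p = 0.00322, adjusted p = 0.859, limma), with 27 to 99 reads per library and overlapping groups. Without AME-d0 replicates 1 and 3 its difference was -5.25 points. The third was an Nr1h4 intron bin at chr10:89482401-89482600, at 94.9% ± 4.6 and 89.9% ± 3.59 (unadjusted p = 0.0287, adjusted p = 0.867).

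No CpG of 676 was called at d0 by the quasi-binomial test (0 rose and 0 fell, beside 0% and 0.000551% of all CpGs), and 1 rose and 9 fell at an unadjusted p under 0.05 (0.148% and 1.33%, against 0.412% and 1.27% of all CpGs). By limma 1 CpG fell, that of Nr1i2, and by the likelihood-ratio test a further CpG, in Nr2f6 at position 71376066 (24.3% ± 12.9 in Con-d0, 11.6% ± 6.05 in AME-d0, quasi-binomial p = 0.0751 unadjusted). The shares of all CpGs called by limma and by the likelihood-ratio test were not computed, so these calls have no background. Promoters, flanks and bodies gave 0 calls by limma among the receptors and 0% among all genes. At an unadjusted p under 0.05 the only one of these was the Nr1i2 body, at 50.2% ± 7.57 in Con-d0 and 41.6% ± 3.48 in AME-d0 (unadjusted p = 0.0341, adjusted p = 0.679), which is made of the same 5 CpGs, where 6.48% of all bodies fell at that unadjusted p.

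At weaning, AME-d21 against Con-d21 gave 0 called bins of 100 by limma (0% of 196732 rose and 0% fell), and 2 rose and 1 fell at an unadjusted p under 0.05 (2% and 1%, against 2.61% and 2.35% of all bins). The lowest adjusted p was 0.975, differences ran from -8.87 to 7.23 points with a median of 0.0818, none reached 10 points, and 92 were under 5. Without AME-d21 replicate 4 the count was again 0, and the lowest adjusted p among the bins named here was 0.919. The 3 smallest p belonged to a pair of bins upstream of Nr2f2 and to the Esrra body. Those of Nr2f2, both under 11% in every library, stood at 1.24% ± 1.42 in Con-d21 and 2.98% ± 1.81 in AME-d21 (chr7:70370001-70370200, unadjusted p = 0.025, limma) and at 6.4% ± 2.86 and 2.94% ± 2.76 (chr7:70369601-70369800, unadjusted p = 0.0269), in opposite directions. The Esrra bin at chr19:6912001-6912200 stood at 88.9% ± 7.56 and 96.1% ± 2.34 (unadjusted p = 0.0478), and the adjusted p of all 3 was 0.975. Groups did not overlap in 1 bin (1%, against 0.645% of all), the one upstream of Nr1h3, with 84.1%, 86.5%, 87.5%, 88.9% and 87% in AME-d21 and at most 83.9% in Con-d21 (adjusted p = 0.975).

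No CpG was called at d21 by the quasi-binomial test (0% and 0.000221% of all CpGs rose and fell), with 2 up and 4 down at an unadjusted p under 0.05 (0.296% and 0.592%, against 0.76% and 0.723% of all CpGs), and none by limma. A likelihood-ratio test called 1, in the first part of Nr5a2 at position 136953105, which read 36.1%, 45.7%, 37.5%, 34% and 29% in Con-d21 and 29.4%, 11.1%, 15.2%, 11.5% and 19% in AME-d21 (quasi-binomial p = 0.0038 unadjusted). It lies beside the printed Nr5a2 bin and rose with age in both maternal groups. The share of all CpGs that the likelihood-ratio test calls was not computed. Promoters, flanks and gene bodies of the receptors gave 0 calls by limma, and 0% of all genes were called. None of them passed an unadjusted p of 0.05 either.

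Whether the AME difference changed with age was tested as an interaction over the 20 libraries. No bin of 98 was called by limma (0% of 186471 rose and 0% fell), and 5 had an unadjusted p under 0.05, all with a higher AME difference at d21 than at d0 (5.1%, where 3.65% of all bins had such a p in that direction and 1.48% in the other). The smallest p was at the Nr1i2 intron bin, where the AME difference was -20.8 points at d0 and 1.8 at d21, a change of 22.6 points (unadjusted p = 0.00494, adjusted p = 0.963, limma). The bin upstream of Nr1h3 changed by 16.3 points (unadjusted p = 0.00573, adjusted p = 0.963) and the Nr2f1 upstream exon bin by 5.5 (unadjusted p = 0.00995). The count stayed at 0 without AME-d21 replicate 4.

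**Figure D5:**
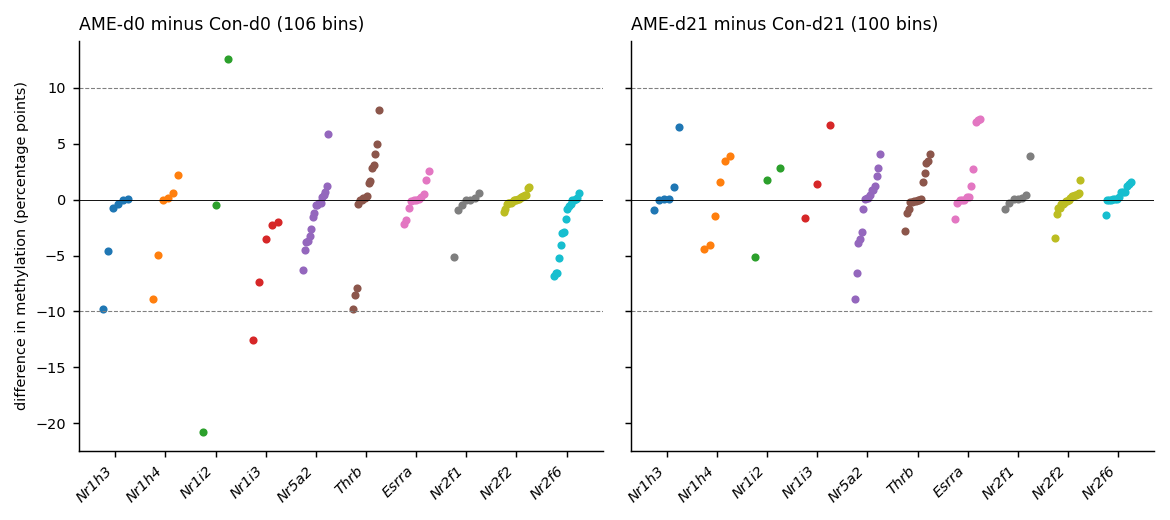
Difference in mean methylation between AME and Con offspring (vertical axis, percentage points) of every tested bin, grouped by gene, at d0 (left, 106 bins) and at d21 (right, 100 bins), with dashed lines at 10 points either way. At d0 the bins past a dashed line belong to Nr1i2 (-20.8 and 12.6 points) and Nr1i3 (-12.5 points), and at d21 no bin is past them.

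For comparison, the other nuclear receptor genes of the genome with enough CpGs moved in both directions between Con-d0 and Con-d21. Of 28 promoters 5 rose and 3 fell (all promoters: 20% rose and 3.92% fell), with a median difference of 0.0560 points against 0.0608 over all promoters. Rara, a retinoic acid receptor, rose from 3.79% ± 3.17 to 26.1% ± 3.69, Nr2e3, a photoreceptor gene, from 72.2% ± 4.39 to 82.5% ± 3.08 and Esr2, an oestrogen receptor, from 0.595% ± 0.168 to 1.95% ± 0.474. Falls were called at Hnf4a, a regulator of hepatocyte identity, from 41.8% ± 17 to 18.8% ± 2.1, its relative Hnf4g from 8.94% ± 2.14 to 4.22% ± 2.75 and Rxra, the partner that Nr1h3, Nr1h4, Nr1i2, Nr1i3 and Thrb bind DNA with, from 4.05% ± 2.43 to 1.02% ± 0.916. Of 33 gene bodies 16 rose and 4 fell (all bodies: 61.4% rose and 5.28% fell), with a median of 2.97 points against 6.43 over all genes. Those that rose most were Esr2, Esrrg and Esr1, by 15.5, 14.6 and 12.7 points, and those that fell most were Hnf4a (from 69.4% ± 4.02 to 55.9% ± 1.56), Ppara, the fatty acid receptor (from 30.01% ± 2.8 to 21.5% ± 3.5), and Rxra (from 30.4% ± 3.22 to 24.9% ± 3.02). None of these promoters or bodies was called in either AME comparison by limma, and at Hnf4a the promoter stood at 54.2% ± 8.06 in AME-d0.

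Genes that the 10 receptors regulate were read the same way. Of 10 promoters 4 rose and 2 fell in controls (all promoters: 20% rose and 3.92% fell), with a median of 0.196 points. Abcg8, a sterol transporter gene induced by Nr1h3, rose most, from 5.54% ± 1.97 to 56.3% ± 6.95 (limma adjusted p = 3.11e-06), followed by the transporter gene Abcc3 (from 2.23% ± 0.671 to 4.5% ± 1.42) and Mylip, a regulator of the low-density lipoprotein receptor (from 0.261% ± 0.118 to 1.33% ± 0.567). The falls at Acadm (from 0.649% ± 0.262 to 0.246% ± 0.116) and Klf9 (from 0.178% ± 0.0494 to 0.0584% ± 0.066) were of under 1 point. Of 16 bodies 8 rose and 5 fell (all bodies: 61.4% rose and 5.28% fell), with a median of 4.25 points. None of the promoters or bodies was called between AME and Con offspring at d0 or d21 by limma.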

How the data were processed

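Genomic DNA of 20 livers was digested with MspI, converted with bisulfite and sequenced as paired reads. Per the submitters' processing notes, the authors used FastQC, Trim Galore, Bismark and BWA with the mouse build mm10; the sources used here give no versions and do not mention deduplication or strand merging. The deposited files list, for each CpG of each library, whole-number counts of methylated and unmethylated reads and a percent that the authors derived from them; counts were used. The totals of 23248139 to 45769589 gave a median of 7 to 13 reads per listed CpG, and reads without molecular identifiers are not independent molecules.

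Groups came from the labels. Only the 19 autosomes were used. CpGs needed 10 reads in at least 3 libraries of each group. For bins of 200 bp, promoters (1 kb on either side of the gene TSS), upstream flanks (5 kb to 1 kb before it) and gene bodies (at least 3 CpGs for the last 3), reads were summed and log2((methylated + 1)/(unmethylated + 1)) was tested with limma 3.58.1 (R 4.3.3), each comparison on its own 10 libraries, with Benjamini-Hochberg adjustment over all features. Single CpGs were tested with a quasi-binomial logistic F test (overdispersion at least 1) at the study's thresholds, p under 0.001 and 10 points. The paper gives these thresholds without naming its test, so the calls here cannot be set against its counts. The F test was stricter than limma and the likelihood-ratio test, which called more CpGs that rose with age. All tests were two-sided. The tests of bins and CpGs were checked on simulated data, with large differences planted at middle methylation levels. That check does not cover small differences or very low levels. Tables were made with Python 3.11.15, numpy 2.4.6, pandas 2.3.3 and scipy 1.17.1 and drawn with matplotlib 3.10.9. Coordinates and transcripts are from GENCODE on GRCm38, the same assembly as mm10.

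The genes and lists were chosen with earlier results of these data known. Up to 2 bins per gene and direction with the largest called difference between Con-d21 and Con-d0 were named, with the 3 smallest p of each AME comparison, and up to 3 genes per direction of the other lists. Single CpGs, the Nr1h3 bin at d21, the interaction bins and the Thrb fall in AME offspring were named after their values were seen. The labels give each group replicate numbers 1 to 5, but correlations of same-numbered libraries were -0.0148 to 0.0616, none above 0.1, so the numbers were not treated as pairs. Alternatives covered the coverage minimum, the added reads, the scale, bin and promoter size, the difference required, the test, a replicate block, a fit of all 20 libraries and the removal of libraries. The deposited percent column and sex chromosomes were not used in the comparisons.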

Additional observations from a re-analysis of the deposited data

Results flagged for a closer look

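In 13 of the 176 groups of 5 libraries examined, 1 library lay apart from the other 4 by Dixon's criterion (critical value 0.710), which chance alone gives in about 1 of 20 groups. The values overlap, since bins form part of gene bodies and flanks.

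In the Nr1i3 intron bin, Con-d0 replicate 4 read 95.8% where the others read 75% to 76.9%, away from the Con-d21 level. The 3′ bin of Nr5a2 read 63.6% in Con-d21 replicate 2 against 43.2% to 48.1%, and the bin upstream of Nr1h3 read 70.7% in Con-d21 replicate 5 against 81.6% to 83.9%. Both of those libraries lay toward the Con-d0 level. At Esrra, the gene-body bin named at d21 read 63.2% in AME-d0 replicate 4 against 78.6% to 83.3%, the gene body 96.9% in AME-d21 replicate 3 against 90.7% to 91.8%, and the upstream flank 20.2% in Con-d21 replicate 3 against 15.4% to 16.4%.

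The Thrb body read 82.6% in AME-d0 replicate 3 against 74.1% to 76.3% and 92.3% in AME-d21 replicate 3 against 86.4% to 87.3%. AME-d0 replicate 3 is 1 of the libraries with low mean methylation, and at Thrb it was the highest of its group. The Nr2f2 body read 3.07% in Con-d0 replicate 1 against 2.15% to 2.33% and 1.73% in AME-d0 replicate 2 against 2.36% to 2.48%, and the Nr2f2 flank 2.79% in that AME-d0 library against 1.44% to 1.80%. Promoter values near 0% were also singled out, 0.139% at Esrra in Con-d0 replicate 1 and 0.222% at Nr1h3 in AME-d21 replicate 5, where the other 4 libraries of each group read 0%.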

How the results depend on the processing

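Of 517 recomputed counts 446 stayed within 1.5 times the reported count, and of 455 values of named bins 431 kept direction and call, 23 lost the call, 1 gained it and none reversed. The counts of called bins, promoters, flanks and gene bodies between AME and Con offspring were 0 in every setting run. With age, bins that fell in controls numbered 2 when all 20 libraries were fitted together, 8 without a minimum difference and 1 at 20 reads per CpG. In AME offspring 5 fell without a minimum difference and 1 at 20 points, at 20 reads, or without AME-d0 replicates 1 and 3. At 20 points 11 bins rose in controls and 14 in AME offspring, and at 20 reads 17 rose in AME offspring. Called promoters in controls were 0 with mean percent over CpGs, at 20 reads or with 500 bp on either side, and 4 in each maternal group around any annotated TSS. In AME offspring 1 was called with 0.5 reads added or without AME-d0 replicates 1 and 3.

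For the counts per CpG that follow, no share over all CpGs was computed. Per CpG, limma called 80 that rose in controls and 83 that rose and 4 that fell in AME offspring, and 1 that fell at d0. The likelihood-ratio test called 103 and 10 in controls, 113 and 7 in AME offspring, 2 that fell at d0 and 1 that fell at d21. At a Benjamini-Hochberg adjusted p under 0.05, 4 fell in AME offspring, and without AME-d0 replicates 1 and 3, 15 rose and 1 fell. With the replicate block limma called 26 bins that rose and 4 that fell in controls, and 27 and 2 in AME offspring, and per CpG 79 that rose in controls, 77 and 4 in AME offspring and 1 that fell at d0. It left the promoter, flank and body counts as they were. Libraries with the same number were no more alike than others, except that 3 libraries matched their own number best between AME-d0 and Con-d0.

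Leaving out 1 library at a time gave 25 to 31 bins that rose and 4 to 5 that fell in controls, 24 to 32 and 1 to 2 in AME offspring, 0 to 1 promoters in each, 2 to 3 flanks in each, and 6 to 7 and 8 to 9 gene bodies. CpGs numbered 19 to 29 up and 0 to 4 down in controls and 30 to 40 up and 1 to 2 down in AME offspring, below the full counts with fewer libraries in each fit. Bins of 1 CpG, as at Nr1i3 and Nr1i2, rest on as few as 8 reads in a library. Within 1 kb of the gene TSS, 5 receptors were not measured well enough to test.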
